A study of Mus musculus with 30 samples.

Results

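The keratin genes of mammary tumours from MMTV-PyMT mice were described here, across treatment groups and tumour by tumour. Members were taken by name: 53 of the 21841 genes of the expression table carried a keratin symbol, and the 22 of them with 10 or more counts in 5 or more of the 30 tumours are reported. These 22 held 99.8% of the keratin counts. None of the other 31 had more than 485 counts over all tumours, and Krt12 was at 0 in every one. Closest to the limit, Krt90, Krt6b and Krt27 were inside it with 5 tumours each, and Krt25, Krt26, Krt28 and Krt4 were outside it with 4 tumours each. Each library was made from 1 tumour by bulk RNA-seq, with 5 libraries in each of 6 groups. The study describes its cohorts as separate mice. The 30 sample codes all differ and fall under 13 prefixes, whose meaning is not given in the sources used here.

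All mice were FVB/N-Tg(MMTV-PyVT)634Mul/J, listed as WT in genotype. In these mice a mouse mammary tumour virus promoter drives the polyoma virus middle T antigen, so that mammary tumours arise spontaneously. No group was tumour-free or lacked the transgene. Injections were intraperitoneal over 72 h. One group received vehicle. KCL-HO-1i, an inhibitor of the heme-degrading enzyme heme oxygenase-1, was given at 25 µmol/kg daily, 5-fluorouracil (5-FU, which blocks thymidylate synthesis) at 40 mg/kg every 4 days and gemcitabine (a deoxycytidine analogue) at 64 mg/kg every 7 days. Each drug was given alone, and the inhibitor also together with either chemotherapy. The combinations are written KCL-HO-1i/5-FU or, with the other chemotherapy, KCL-HO-1i/gemcitabine. In its text the study states a treatment time shorter than that of the sample records used here, and a lower gemcitabine dose, and which applies to these libraries was not tested. No animal ages were given in the sources used here. The drug groups address how the inhibitor and the chemotherapies, alone and together, alter the tumour.

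Keratins are the intermediate filament proteins of epithelial cells. Each filament pairs a type I keratin, encoded on mouse chromosome 11, with a type II keratin, encoded on chromosome 15, except that the type I gene Krt18 lies beside its type II partner Krt8. Which pair a cell makes marks its kind: Krt8 with Krt18 in simple epithelia such as the luminal cells of the mammary duct, Krt5 with Krt14 in basal and myoepithelial cells and in the basal layer of skin, Krt1 with Krt10 above that layer, and further pairs in the hair follicle.

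The 30 libraries held between 10067698 and 13622395 counts, so that 3 counts corresponded to between 0.215 and 0.302 CPM (counts scaled by the normalised library size). Keratins made up between 0.133% and 0.441% of the counts of a tumour, with a median of 0.276%, and Krt8 with Krt18 gave 75.3% of all keratin counts. Epcam, an epithelial surface marker, was present in every tumour, with between 5866 and 20208 counts. Of the 22 keratins, 9 lie on chromosome 11 and 13 on chromosome 15. In 5 tumours Tchh, which encodes the hair follicle protein trichohyalin, had between 319 and 5207 counts, against at most 71 in the other 25. They were vehicle replicates 3 and 5, gemcitabine replicate 3, KCL-HO-1i replicate 4 and KCL-HO-1i/gemcitabine replicate 5. They fall in 4 of the 6 groups. Padi3, another gene of the hair follicle, did not set them apart, with 245 counts in 5-FU replicate 4 and 55 in vehicle replicate 5. Without the 5 tumours of high Tchh 17 of the 22 keratins passed the filter, and Krt1, Krt6b, Krt27, Krt73 and Krt90 could not be tested.

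**Figure D1:**
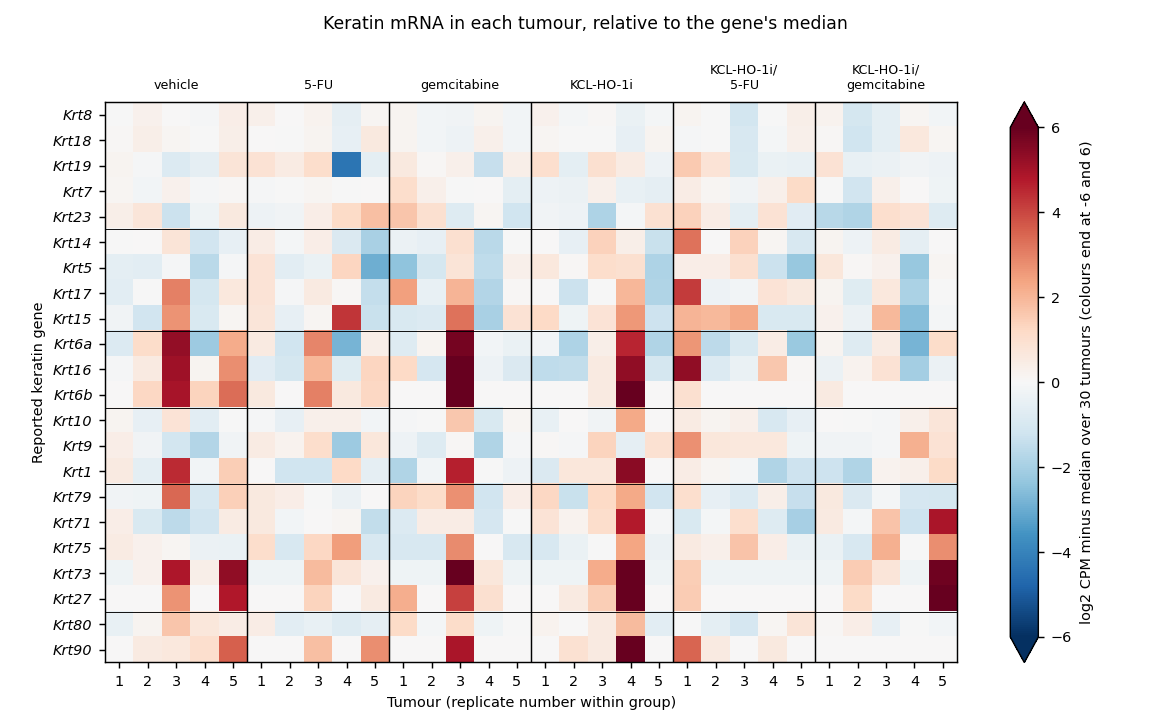
Heat map of the 22 reported keratins (rows, ordered by class) in the 30 tumours (columns, by group and replicate number), coloured by log2 CPM minus the median of that gene over all tumours, with colours ending at -6 and 6. Krt8 and Krt18 stayed near their medians, while Krt6a, Krt6b, Krt16, Krt73 and Krt27 were far above theirs in a few single tumours.

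Differences in keratin mRNA between the treatment groups were tested gene by gene. No keratin passed an adjusted p of 0.05 (edgeR's quasi-likelihood test, adjusted over 13663 genes) for any single treatment against vehicle, where the background was 0% of the genes tested in each of the 5 comparisons. For the average effect of KCL-HO-1i, taken without chemotherapy and with each of the chemotherapies, again 0 of 22 keratins passed, against 0.0586% of all genes, and for any difference among the 6 groups 0 of 22, against 0.651%. In the 2 interactions of KCL-HO-1i with 5-FU and with gemcitabine no keratin passed and the background was 0%. With limma-voom the counts were 0 in all 9 comparisons, and with DESeq2 they were 1 for KCL-HO-1i/gemcitabine (Krt71), 2 for the KCL-HO-1i average (Krt71 and Krt9), 1 for any difference (Krt71) and 0 elsewhere.

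At an unadjusted p of 0.05 a few keratins passed in each comparison but 1. With 5-FU it was 1 of 22 (background 3.89%), with 0 higher (1.65%) and 1 lower (2.24%). With gemcitabine it was 0 of 22 (3.83%), where 2.05% of all genes were higher and 1.78% lower. With KCL-HO-1i alone it was 1 of 22 (9.43%), with 1 higher (7.36%) and 0 lower (2.08%). With KCL-HO-1i/5-FU it was 5 of 22 (17.6%), with Krt9 and Krt14 higher (9.79%) and Krt1, Krt6b and Krt79 lower (7.84%). With KCL-HO-1i/gemcitabine it was 3 of 22 (19.8%), with Krt71 higher (11.7%) and Krt6b and Krt79 lower (8.04%). For the KCL-HO-1i average it was 3 of 22 (23%), with Krt71 and Krt9 higher (13.7%) and Krt6b lower (9.22%). The interaction with 5-FU gave 2 of 22 (8.53%), Krt17 positive (4.03%) and Krt71 negative (4.51%). The interaction with gemcitabine gave 2 of 22 (1.34%), Krt90 and Krt6b, both negative (0.695%, against 0.644% positive), and both of these genes were at 0 in 17 of the 30 tumours. Any difference among groups gave 6 of 22 (18.7%). The median log2 difference over the 22 keratins lay between -0.22 and 0.38 in the 5 comparisons with vehicle, against between -0.01 and 0.03 over all genes.

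The spread between tumours was large. The SD of log2 CPM over the 30 tumours had a median of 1.23 over the keratins, against 0.34 over all genes tested, and it was above 1 for 17 of the 22 keratins and for 12.7% of all genes. The share of that variance that lay between the treatment groups had a median of 10.8% over the keratins (range 5.31% to 27.6%), against 20.5% over all genes. These shares are not corrected for the differences between group means that arise without any treatment effect. They are therefore not shares due to treatment. The keratins are described below by role.

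Krt8 and Krt18, the partner pair of simple epithelium, were the most abundant keratins and the steadiest. On the scale of median CPM per kilobase of transcript, their levels were 627 for Krt8 and 629 for Krt18, followed by Krt19 at 126, Krt14 at 55.1, Krt5 at 31.5, Krt7 at 30.1, Krt23 at 15.3 and Krt17 at 10.8. Their SDs of log2 CPM were 0.36 and 0.40. The genes of the pair point away from each other on chromosome 15 (GRCm38), with Krt8 on the minus strand at chr15:101996698-102004482 and Krt18 on the plus strand at chr15:102028180-102032027. The 300 bases from 250 before to 50 after the RefSeq start of each gene are shown because this pair had the highest r of the 11 pairs correlated. Pairs outside those 11 were not compared. Capitals mark any TATAAA motif on either strand (sequences from RefSeq, GRCm38.p6, with Krt8 at chr15:102004293-102004592, minus strand, and Krt18 at chr15:102027966-102028265, plus strand).
Krt8: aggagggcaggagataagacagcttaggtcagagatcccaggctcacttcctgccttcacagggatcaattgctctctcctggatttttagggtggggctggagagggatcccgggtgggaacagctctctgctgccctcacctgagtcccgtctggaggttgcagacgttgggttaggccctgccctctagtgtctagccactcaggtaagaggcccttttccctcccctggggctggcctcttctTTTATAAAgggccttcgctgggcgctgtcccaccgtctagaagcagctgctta
Krt18: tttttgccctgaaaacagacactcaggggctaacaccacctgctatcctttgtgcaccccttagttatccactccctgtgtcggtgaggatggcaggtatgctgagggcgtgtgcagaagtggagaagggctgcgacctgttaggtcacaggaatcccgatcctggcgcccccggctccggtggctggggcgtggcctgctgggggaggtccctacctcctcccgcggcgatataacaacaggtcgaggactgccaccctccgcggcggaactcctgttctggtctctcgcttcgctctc
The Krt8 window held overlapping TATAAA matches on both strands, 3 bases and 1 base before the RefSeq start, and the Krt18 window held none. The gene spans given above are from GENCODE, and the RefSeq starts of both genes lie inside them. The Krt8 matches therefore fall within the GENCODE span of that gene. TATAAA was found in 13.6% of all 32851 promoter windows and in 5 of the 14 windows of reported keratins. Among the other motifs searched on both strands, GGGCGG was in 35.7% of all windows, TGANTCA in 7.81% and the letters CTTTGA in 16%. None of these was in either window.

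In CPM, Krt8 was 1222, 1450, 1256, 1167 and 1611 in vehicle replicates 1 to 5. It was 1355, 1199, 567, 1202 and 1550 with KCL-HO-1i/5-FU and 1417, 597, 823, 1322 and 1109 with KCL-HO-1i/gemcitabine. The vehicle tumours overlapped both combinations, and the low tumours were KCL-HO-1i/5-FU replicate 3 and KCL-HO-1i/gemcitabine replicate 2, which also had the lowest Epcam counts of all tumours (7033 and 5866). Against vehicle the log2 difference of Krt8 was -0.19 (SE 0.22, adjusted p = 0.687) with KCL-HO-1i/5-FU and -0.35 (SE 0.22, adjusted p = 0.405) with KCL-HO-1i/gemcitabine, and that of Krt18 was -0.30 (SE 0.25, adjusted p = 0.551) and -0.23 (SE 0.25, adjusted p = 0.656). Krt18 was 945, 1153, 986, 889 and 1140 CPM in vehicle tumours, and its lowest tumour was the same KCL-HO-1i/gemcitabine replicate 2, at 401 CPM. In bulk tissue, fewer epithelial cells and less keratin mRNA per cell cannot be told apart. The summed level of 15 other epithelial genes ran from 5084 to 5510 CPM in vehicle tumours, from 2822 to 5791 CPM with KCL-HO-1i/5-FU and from 2619 to 5671 CPM with KCL-HO-1i/gemcitabine, and its part in the Krt8 values was not tested.

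Krt8 and Krt18 followed each other across the 30 tumours (Pearson r = 0.893, permutation p = 1e-05, the smallest that the 100000 draws could give, adjusted over 11 pairs 0.00011, Spearman rho = 0.790, permutation p = 1e-05). Without the 2 tumours farthest from the Krt8 median, r was 0.781. The ratio of Krt8 to Krt18 per length stayed between 0.684 and 1.21, with a median of 0.996. Of the transcript sequence of Krt8, 32.2% in words of 31 bases is shared with the pseudogene Krt8-ps, so its level is uncertain by what the counting assigned to the copy. Its value was not a whole number in any of the 30 tumours before rounding. The same held for Krt7, with 2.71% of its words shared with other genes, while Krt16, with 51.9% shared, was whole in every tumour. How reads were divided was not tested.

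Krt8 with Epcam gave r = 0.753 (permutation p = 4e-05, adjusted 0.000147, rho = 0.474), and 0.448 without the same 2 low tumours. For Krt8 with Krt7, the keratin of glandular ducts, r was 0.494 (permutation p = 0.00704, adjusted 0.0111), and rho was 0.353 (permutation p = 0.056). The r fell to 0.312 without those 2 tumours (permutation p = 0.105), on which the Pearson relation rested. For Krt8 with Krt19 it was 0.425 (permutation p = 0.0314, adjusted 0.0432, rho = 0.439). Krt8 and the basal keratin Krt14 showed no relation past the threshold (r = -0.131, permutation p = 0.469, rho = -0.0901).

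Krt19, a simple type I keratin without a long tail domain, varied most within the simple class, with an SD of log2 CPM of 1.08. Its CPM values were 223, 187, 111, 134 and 338 in vehicle tumours, 361, 280, 414, 9.37 and 130 with 5-FU and 593, 352, 105, 148 and 144 with KCL-HO-1i/5-FU. Both extremes of the series were among these: 5-FU replicate 4 at 9.37 CPM, where the next lowest tumour had 75.3, and KCL-HO-1i/5-FU replicate 1 at 593. The per-length ratio of Krt19 to Krt8 was 0.235 at the median and 0.0136 in 5-FU replicate 4. Krt7 stayed between 55.3 and 272 CPM. It was 134, 111, 148, 118 and 131 CPM in vehicle, 118, 121, 132, 123 and 126 CPM in 5-FU and 259, 154, 121, 125 and 82 CPM in gemcitabine tumours. With the inhibitor it was 100, 95.1, 153, 90.2 and 83.9 CPM alone, 170, 136, 106, 151 and 272 CPM with 5-FU and 122, 55.3, 151, 124 and 102 CPM with gemcitabine. Vehicle and 5-FU tumours were close together, and the other groups were wider and overlapped them. Krt23, a type I keratin of glandular epithelium, lay between 6.42 and 82.6 CPM. None of the 5 simple keratins reported had an unadjusted p under 0.05 in any comparison; Krt20, the other simple keratin of the fixed list, did not reach the count limit.

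**Figure D2:**
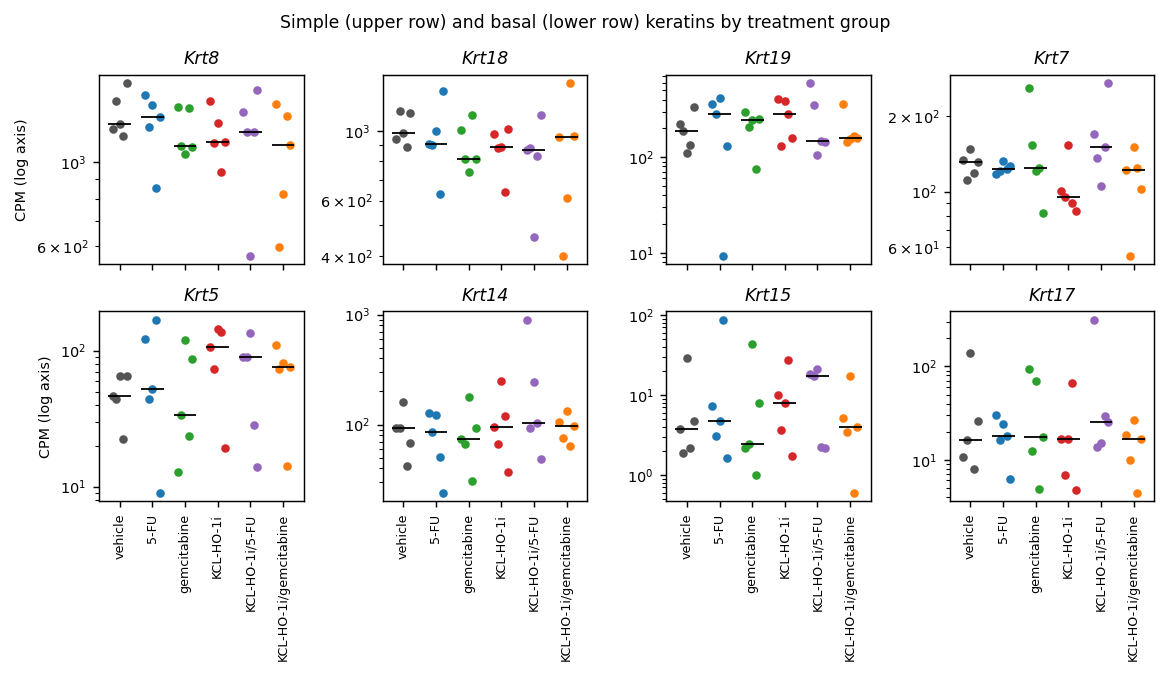
CPM on a log axis of 4 simple keratins (upper row) and 4 basal keratins (lower row) in the 6 groups; each point is a tumour and the black line is the group median. The groups overlap in every panel, and the single low Krt19 point (5-FU replicate 4, 9.37 CPM) and the single high Krt14 and Krt17 points (KCL-HO-1i/5-FU replicate 1, 893 and 315 CPM) lie apart from the rest of their groups.

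The basal keratins Krt5, Krt14, Krt15 and Krt17 together gave between 1.34% and 29.6% of the keratin CPM of a tumour, with a median of 6.73%. Krt14 was 93.4, 93.6, 160, 42 and 67.4 CPM in vehicle tumours and 893, 93.8, 245, 103 and 48.4 CPM with KCL-HO-1i/5-FU. One tumour of the combination, replicate 1, was far above all others, and the remaining 4 overlapped the vehicle tumours. The log2 difference was 1.60 (SE 0.63, unadjusted p = 0.017, adjusted p = 0.191), and 0.42 (SE 0.53, adjusted p = 0.722) without that tumour. Krt5, the type II partner of Krt14, was 46.6, 43.9, 65, 22.5 and 65.6 CPM in vehicle tumours, 107, 73.5, 145, 136 and 19.3 CPM with KCL-HO-1i and 89.8, 90.5, 135, 28.5 and 14 CPM with KCL-HO-1i/5-FU. Its log2 difference from vehicle was 0.98 (SE 0.68, adjusted p = 0.745) with KCL-HO-1i alone, and groups overlapped.

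The basal keratins tracked one another and the basal cell regulator Trp63 across tumours. For Krt5 with Krt14, r was 0.619 (permutation p = 0.00015, adjusted 0.000413, rho = 0.665) and 0.568 without the 2 farthest tumours. For Krt14 with Krt17 it was 0.708 (permutation p = 3e-05, adjusted 0.000147, rho = 0.636) and 0.534 without the 2 farthest. For Krt14 with Krt15 it was 0.555 (permutation p = 0.00123, adjusted 0.00226, rho = 0.711), and for Krt14 with Trp63 0.625 (permutation p = 0.0002, adjusted 0.00044, rho = 0.685), or 0.743 without the 2 farthest. With Acta2, the smooth muscle actin of myoepithelial cells and vessels, Krt14 gave r = 0.331 (permutation p = 0.078, adjusted 0.0858, rho = 0.471, permutation p = 0.00935). For Krt14 with the suprabasal Krt10, r was 0.388 (permutation p = 0.0398, adjusted 0.0486, rho = 0.421). With values centred on the group means all 11 pairs kept their sign and their side of the threshold.

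Partners did not always keep step. The per-length ratio of Krt5 to Krt14 was 0.439 at the median. KCL-HO-1i/5-FU replicate 1 had the lowest ratio, 0.0778, and 5-FU replicate 4 the highest, 2.55. Krt15, a type I keratin of basal cells and of hair follicle stem cells, was 7.28, 3.08, 4.75, 86.8 and 1.63 CPM in the 5-FU tumours. Replicate 4 of that group had the highest Krt15 and the highest Krt5 (168 CPM) of all 30 tumours beside the lowest Krt19, while its Krt14 ranked 25 from the top with 51 CPM. It also had the highest Dsg3, a desmosomal cadherin of basal and stratified cells, at 36.4 CPM against a median of 0.87 and at most 24.3 elsewhere, while its Epcam (1176 CPM) was close to the median of 1215. No other tumour combined these values, and with 1 such tumour no comparison can be made.

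Replicate 1 of KCL-HO-1i/5-FU had the highest Krt14, Krt17, Krt19 and Krt9 of the series. Krt17, a type I keratin of basal and injured epithelium, was 315, 13.7, 15.1, 29.5 and 25.6 CPM in that group, against 10.8, 16.3, 139, 7.89 and 25.8 CPM in vehicle, 30.2, 16.1, 24.1, 17.9 and 6.15 CPM in 5-FU and 16.9, 6.78, 16.5, 66.8 and 4.7 CPM in KCL-HO-1i tumours. Single tumours were high in vehicle (replicate 3), KCL-HO-1i (replicate 4) and, above all others, KCL-HO-1i/5-FU (replicate 1), and the rest overlapped. In KCL-HO-1i/5-FU replicate 1, Krt14 was 9.55 times, Krt17 18.7 times, Krt16 52.1 times, Krt9 7.64 times and Krt19 3 times the median over all tumours. All of these are type I genes of chromosome 11. Krt10, on the same chromosome, was at 1.44 times. Of the genes of chromosome 15 in that tumour, Krt5 was at 1.3 times, Krt8 at 1.1 times and Krt7 at 1.38 times. Others there were higher: Krt6a at 7.2 times (93 counts), Krt73 at 10.4 times (5 counts), Krt79 at 2.02 times and Krt75 at 1.97 times (4 counts), and Krt90, with a median of 0, had 22 counts. Krt16 shares 51.9% of its sequence in words of 31 bases with other genes and Krt14 29.2%, of which 18.2% with Krt16, so how reads were split among these type I genes bears on the Krt16 value and was not tested.

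The raised level in that tumour was not limited to keratins. The 27 keratin genes of chromosome 11 span chr11:99232761-100269871 (GRCm38). Of the 60 other genes tested within 1 Mb on either side, 44 lay more than 0.5 log2 units above their median over the tumours, and their median deviation was 0.92. That was the highest of the 30 tumours, where the next highest was 0.25, and the other 1086 genes tested on the chromosome had a median deviation of -0.0041 in this tumour. Among the neighbours, Jup, which encodes the desmosomal plaque protein plakoglobin, was 1.62 above its median and Erbb2, a growth factor receptor, 1.53 above. The deviation was high in the bins next to the cluster and not in those after them: its median was 0.80 over 26 genes in the first Mb before the cluster and 0.10 over 22 genes in the next, and 1.16 over 34 genes in the first Mb after it and -0.04 over 31 genes in the next. Farther out it was high again, at 0.92 over 14 genes from 5 to 6 Mb after the cluster, where another tumour reached 1.08, and at 1.16 over 11 genes from 9 to 10 Mb, where no other tumour exceeded 0.51. Around the type II cluster of chromosome 15 the 42 neighbours had a median deviation of 0.07 in the same tumour. The reason for the regional level was not tested, and the regions were chosen after the values of this tumour were seen.

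**Figure D3:**
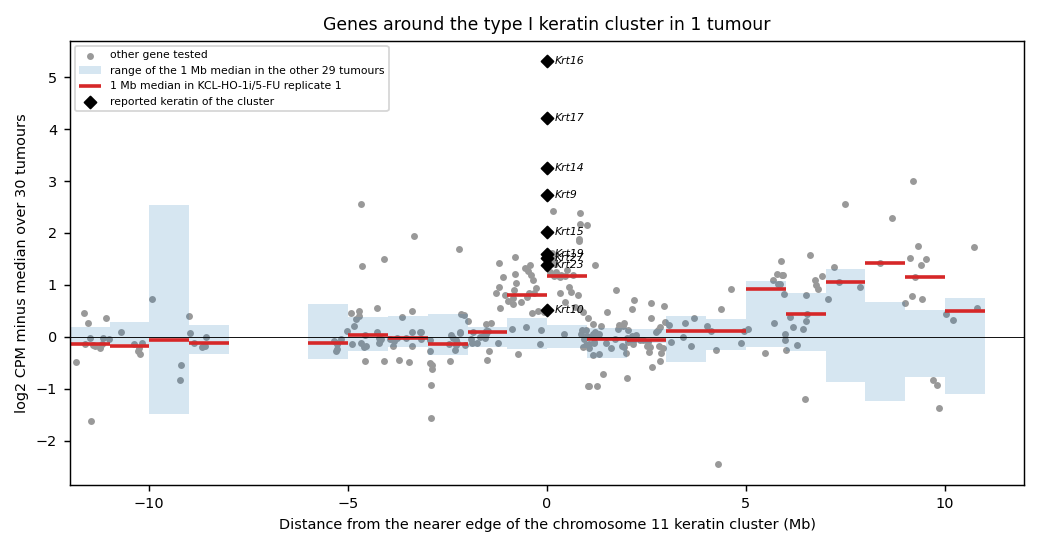
Log2 CPM minus the median over 30 tumours (vertical axis) of genes around the type I keratin cluster of chromosome 11 in KCL-HO-1i/5-FU replicate 1, by distance from the nearer edge of the cluster in Mb (horizontal axis); grey points are other genes, black diamonds the keratins of the cluster, red lines the medians per Mb and blue bands the range of those medians in the other 29 tumours. The red lines leave the blue bands in the first Mb on either side (0.80 and 1.16) return to them in the next Mb, and leave them again from 8 to 10 Mb after the cluster (above) and from 10 to 11 Mb before it (below, -0.18 over 6 genes).

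Without this tumour the positive differences of Krt14 and Krt9 in the KCL-HO-1i/5-FU group were smaller and that of Krt17 turned from 1.00 to -0.93 (unadjusted p = 0.287 and 0.286), while negative ones were larger, as for Krt1 (-3.31 to -3.73), Krt79 (-1.69 to -2.13) and Krt6a (-2.48, unadjusted p = 0.139, to -4.25, unadjusted p = 0.0369, adjusted p = 0.265). The difference of Krt16 went from 0.04 to -2.92 (unadjusted p = 0.98 and 0.105). That of Krt9, a type I keratin of palm and sole epidermis, went from 1.89 (SE 0.71, unadjusted p = 0.0131, adjusted p = 0.18) to 1.00 (SE 0.68, adjusted p = 0.464), and the interaction of KCL-HO-1i with 5-FU on Krt17 from 2.92 (SE 1.32, unadjusted p = 0.0362, adjusted p = 0.551) to 1.00 (SE 1.15, adjusted p = 0.823). Without the 5 tumours of high Tchh these were 1.74 (unadjusted p = 0.0664) for Krt9 and 2.14 (unadjusted p = 0.113) for the Krt17 interaction. Leaving out those 5, which include vehicle replicates 3 and 5, raised other KCL-HO-1i/5-FU differences from vehicle. They were 1.85 for Krt14, 2.76 for Krt17 and 3.21 for Krt16 (unadjusted p = 0.0291, 0.0171 and 0.0408, adjusted p = 0.643 for each). Krt9 counts were 14, 11, 4, 2 and 11 in vehicle tumours, 97, 22, 18, 19 and 10 with KCL-HO-1i/5-FU and 11, 8, 11, 63 and 21 with KCL-HO-1i/gemcitabine. The highest 2 tumours of the series were KCL-HO-1i/5-FU replicate 1 and KCL-HO-1i/gemcitabine replicate 4, and the rest of the groups overlapped. For the KCL-HO-1i average, the log2 difference of Krt9 was 1.18 (SE 0.40, unadjusted p = 0.0072, adjusted p = 0.0931), with 11 of 15 inhibitor tumours above the median of the 15 without inhibitor. It was 0.88 (unadjusted p = 0.0283, adjusted p = 0.169) without KCL-HO-1i/5-FU replicate 1. Without the 5 tumours of high Tchh it was 1.26 (unadjusted p = 0.0162, adjusted p = 0.373), and without 5-FU replicate 4 it was 1.06 (unadjusted p = 0.00881, adjusted p = 0.114).

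The activation keratins Krt6a, Krt6b and Krt16, which stratified epithelium makes in wounds and in the hair follicle, were close to absent in most tumours and high in a few. Krt6a counts were 5, 31, 498, 1 and 68 in vehicle, 18, 4, 102, 0 and 17 in 5-FU and 6, 13, 651, 11 and 7 in gemcitabine tumours. They were 12, 2, 17, 270 and 2 with KCL-HO-1i, 93, 3, 5, 17 and 1 with KCL-HO-1i/5-FU and 15, 5, 17, 0 and 25 with KCL-HO-1i/gemcitabine. A few tumours carried most of the signal: vehicle replicate 3, gemcitabine replicate 3 and KCL-HO-1i replicate 4 had 498, 651 and 270 counts and, for the type I partner Krt16, 256, 455 and 268. KCL-HO-1i/5-FU replicate 1 had 352 Krt16 counts with 93 of Krt6a, and 5-FU replicate 3 had 31 with 102. Krt6b had 56, 212 and 109 counts in the same 3 tumours, 2 counts over all KCL-HO-1i/5-FU tumours and 1 over all KCL-HO-1i/gemcitabine tumours, which is too few for a fold. Krt6a and Krt6b share about 50% of their sequence words with each other (49.3% of Krt6a and 50.3% of Krt6b), so the division of reads between them is uncertain.

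Krt1, the type II suprabasal keratin of epidermis, was high in the same 3 tumours, with 143, 154 and 239 counts, and had between 0 and 19 counts in the other 27. Against vehicle its log2 difference was -3.31 (SE 1.52, unadjusted p = 0.0393, adjusted p = 0.258) with KCL-HO-1i/5-FU, where all 5 tumours had 8 counts or fewer; 4 of the 5 vehicle tumours had 19 counts or fewer, and the groups overlapped. Without the 5 tumours of high Tchh, neither Krt1 nor Krt6b passed the filter, so their lower values in the combinations have no test without vehicle replicates 3 and 5. Its partner Krt10 was present in every tumour at between 3.29 and 32.8 CPM, and its 2 highest tumours were KCL-HO-1i replicate 4 (330 counts) and gemcitabine replicate 3 (223 counts). Of the late markers of cornified skin, Lor had at most 12 counts and Flg at most 9 in any tumour. Ivl and Krtdap, which mark the layers below, had at most 4 and 9 counts in 27 tumours, against 51 and 59 in vehicle replicate 3, 28 and 77 in gemcitabine replicate 3, and 19 and 37 in KCL-HO-1i replicate 4. Other genes listed for epidermal differentiation were not so rare: Sbsn had between 99 and 902 counts in every tumour. The 22 genes of that list together ran from 56.3 to 454 CPM, with a median of 111.

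Krt71 is a keratin of the inner root sheath, the layer that moulds the growing hair. It gave the smallest p-value of the family (edgeR, unadjusted p = 0.00112 for any difference among the 6 groups). Krt73 and Krt27, of the same layer, had 0.0192 and 0.0158 there, but 0.836 and 0.225 for the KCL-HO-1i average. Krt71 and Krt73 are nearby type II genes on the minus strand of chromosome 15. Their start regions are shown because both genes were high in KCL-HO-1i replicate 4 and KCL-HO-1i/gemcitabine replicate 5, with TATAAA in capitals (RefSeq, GRCm38.p6; Krt71 at chr15:101743048-101743347 and Krt73 at chr15:101802311-101802610).
Krt71: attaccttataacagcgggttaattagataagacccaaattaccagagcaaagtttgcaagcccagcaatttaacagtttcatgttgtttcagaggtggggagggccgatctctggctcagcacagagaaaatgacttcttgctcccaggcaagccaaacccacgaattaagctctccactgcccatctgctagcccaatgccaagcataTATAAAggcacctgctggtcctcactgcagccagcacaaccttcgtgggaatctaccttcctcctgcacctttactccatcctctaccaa
Krt73: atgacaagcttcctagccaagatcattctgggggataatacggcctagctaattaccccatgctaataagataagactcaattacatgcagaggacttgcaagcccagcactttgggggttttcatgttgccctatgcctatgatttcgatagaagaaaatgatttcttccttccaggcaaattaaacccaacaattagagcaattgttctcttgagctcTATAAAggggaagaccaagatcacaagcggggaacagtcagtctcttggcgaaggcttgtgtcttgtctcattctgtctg
Each window held 1 TATAAA match, 40 bases before the annotated start of Krt71 and 30 before that of Krt73, and none of the other 3 motifs searched.

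Krt71 counts were 16, 7, 3, 5 and 22 in vehicle, 21, 12, 14, 15 and 4 in 5-FU and 7, 19, 17, 6 and 11 in gemcitabine tumours. They were 29, 18, 34, 346 and 13 with KCL-HO-1i, 7, 14, 27, 7 and 2 with KCL-HO-1i/5-FU and 23, 10, 49, 5 and 421 with KCL-HO-1i/gemcitabine. KCL-HO-1i replicate 4 and KCL-HO-1i/gemcitabine replicate 5 stood far above the rest, and below them the groups overlapped. The log2 difference from vehicle was 3.24 (SE 1.08, unadjusted p = 0.00572, adjusted p = 0.348) with KCL-HO-1i, 0.10 with KCL-HO-1i/5-FU and 3.35 (SE 1.08, unadjusted p = 0.00451, adjusted p = 0.1) with KCL-HO-1i/gemcitabine. These comparisons share the vehicle tumours. For the KCL-HO-1i average it was 2.03 (SE 0.60, unadjusted p = 0.00229, adjusted p = 0.0616), and for any difference among groups the adjusted p was 0.0802. The interaction with 5-FU was -3.44 (SE 1.48, unadjusted p = 0.0273, adjusted p = 0.519). The median was 1.34 CPM in the 15 tumours with inhibitor and 1.09 CPM in the 15 without, and 6 of the 15 with inhibitor were above the highest of those without.

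Both high Krt71 tumours were among the 5 with high Tchh. Without those 5 tumours the log2 difference of Krt71 was 1.11 (SE 0.80, adjusted p = 1) for KCL-HO-1i, 1.12 (SE 0.80, adjusted p = 0.669) for KCL-HO-1i/gemcitabine and 0.61 (SE 0.42, adjusted p = 0.572) for the average, and the interaction with 5-FU was -1.32 (SE 1.02, adjusted p = 0.829). The summed level of the 63 hair follicle genes other than keratins ran from 3.56 to 41.3 CPM in vehicle tumours, from 3.88 to 566 CPM with KCL-HO-1i and from 4.89 to 88.8 CPM with KCL-HO-1i/gemcitabine. It ran from 4.38 to 42.3 CPM with 5-FU, from 3.57 to 96 CPM with gemcitabine and from 4.54 to 12.4 CPM with KCL-HO-1i/5-FU. None of the 5 tumours of high Tchh had received 5-FU. Of the hair follicle genes, none of the 4 that could be tested reached an unadjusted 0.05 in the comparisons in which Krt71 was higher. Their part in the Krt71 difference was not tested beyond leaving the 5 tumours out.

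**Figure D4:**
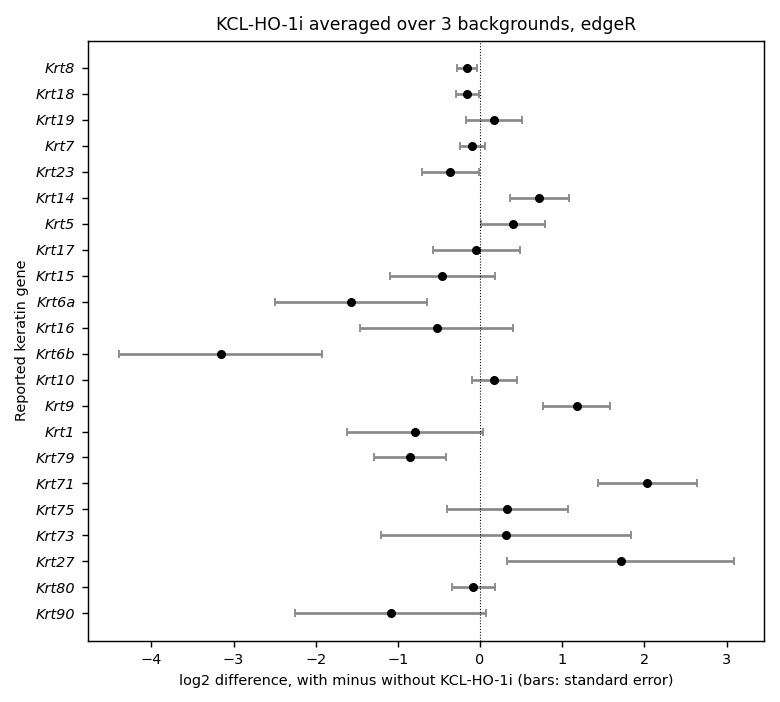
Log2 difference with minus without KCL-HO-1i, averaged over 3 backgrounds (horizontal axis), for each of the 22 reported keratins (vertical axis); points are edgeR estimates and bars are standard errors. Krt71 (2.03) and Krt9 (1.18) lie farthest above 0 in units of their error and Krt6b farthest below, and none passed the adjusted threshold.

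Krt73 and Krt27, a type I keratin of the same layer, were nearly silent outside these tumours. Krt73 counts were 0, 1, 63, 1 and 103 in vehicle, 0, 0, 260, 2 and 0 in gemcitabine and 0, 0, 10, 1032 and 0 in KCL-HO-1i tumours. They were 0, 4, 2, 0 and 125 with KCL-HO-1i/gemcitabine, and at most 7 in any tumour of the other two groups. The 5 tumours of high Tchh were thus the 5 highest for Krt73, and the other 25 had at most 10 counts. They were also the 5 highest for Krt27, with 415 counts in the highest (KCL-HO-1i replicate 4), 10 in the lowest (vehicle replicate 3) and at most 7 elsewhere. Krt25 and Krt28, further type I keratins of the sheath that fell short of the count limit, had 137 and 150 counts in KCL-HO-1i replicate 4 and 244 and 84 in KCL-HO-1i/gemcitabine replicate 5. Krt27 shares 16.7% of its sequence words with Krt25. The tumours differed in the mix: KCL-HO-1i/gemcitabine replicate 5 had 421 Krt71 counts and 25 Krt6a counts, whereas vehicle replicate 3 had 3 Krt71 counts and 498 Krt6a counts.

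Krt75 marks the companion layer and Krt79 the upper duct of the follicle. Krt75 never exceeded 23 counts, and its log2 difference with gemcitabine, the smallest p of that comparison (1.38, SE 1.36, unadjusted p = 0.319, adjusted p = 0.941), turned to -1.77 without gemcitabine replicate 3. Krt79 was 9.02, 8.65, 116, 5.26 and 28 CPM in vehicle tumours, 21.1, 7.42, 5.9, 13.2 and 3.84 CPM with KCL-HO-1i/5-FU and 15.6, 5.63, 9.58, 5.05 and 5.01 CPM with KCL-HO-1i/gemcitabine. Vehicle replicate 3 was the highest tumour of the series and the other vehicle tumours overlapped the combinations. The log2 difference was -1.69 (SE 0.77, unadjusted p = 0.036, adjusted p = 0.25) and -2.02 (SE 0.78, unadjusted p = 0.0149, adjusted p = 0.142) for the combinations, and 0.42 and 0.21 without the 5 tumours of high Tchh.

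**Figure D5:**
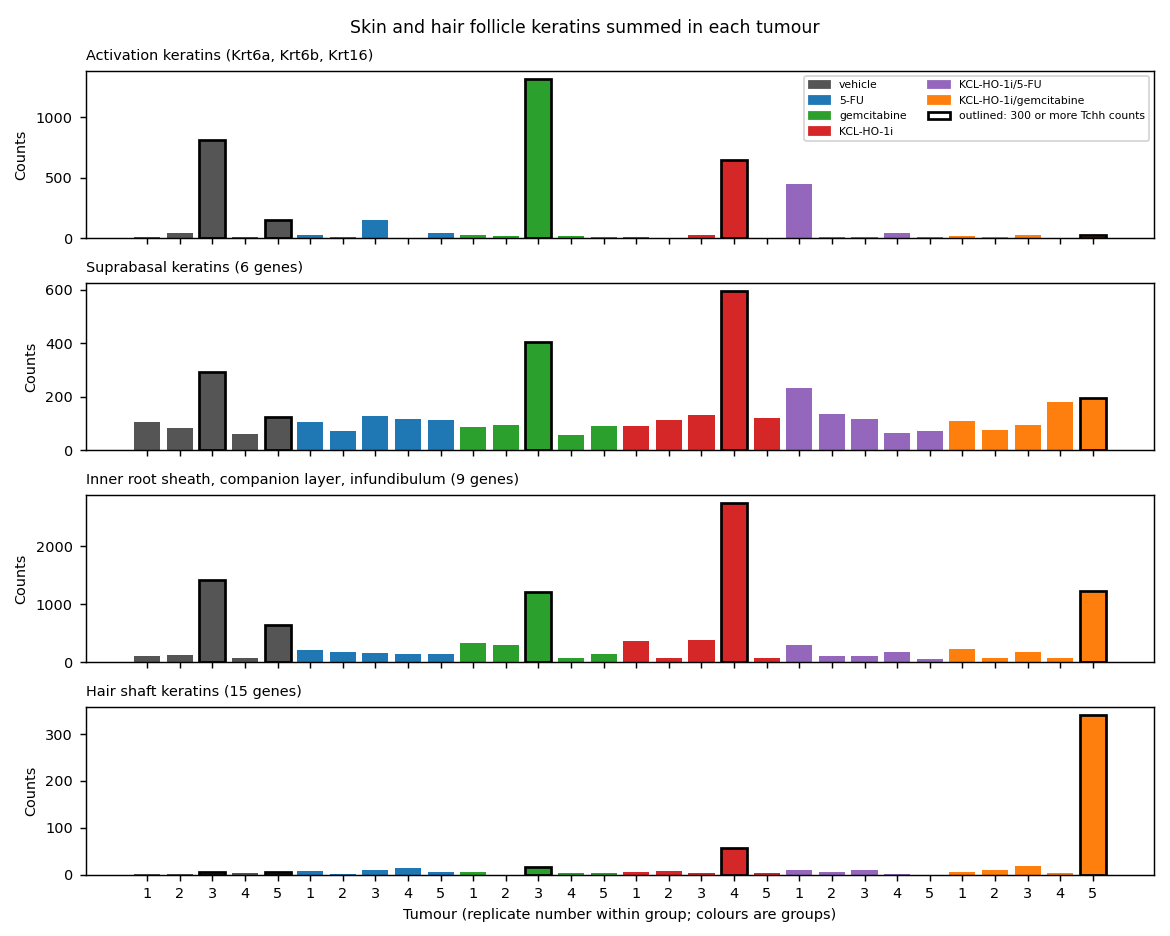
Summed counts of 4 classes of skin and hair keratins (panels, vertical axis in counts starting at 0) in each tumour (horizontal axis, by group and replicate number); colours are groups and black outlines mark the 5 tumours with 300 or more Tchh counts. Outlined tumours carry the tallest bars of every panel, but different ones: gemcitabine replicate 3 for the activation keratins (1318), KCL-HO-1i replicate 4 for the sheath keratins (2749) and KCL-HO-1i/gemcitabine replicate 5 for the hair shaft keratins (341).

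None of the 15 keratins of the hair shaft reached the count limit. Together they had 341 counts in KCL-HO-1i/gemcitabine replicate 5, 56 in KCL-HO-1i replicate 4 and at most 19 in any other tumour. The first of these tumours had 64 counts of Krt83, 51 of Krt33a, 46 of Krt35, 36 of Krt31, 25 of Krt34 and 22 of Krt81, and 432 counts over the keratin-associated proteins, against at most 24 elsewhere. The mucosal keratins Krt4, Krt13 and Krt76 had at most 19 counts together in any tumour.

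Of the remaining reported keratins, Krt80, a widely made type II keratin, had the smallest p for 5-FU. It was 3.1, 4.94, 14.2, 7.12 and 6.02 CPM in vehicle and 6.02, 2.76, 3.2, 2.44 and 2.96 CPM in 5-FU tumours, which overlapped, with a log2 difference of -1.02 (SE 0.45, unadjusted p = 0.0312, adjusted p = 0.999). Without vehicle replicate 3 it was -0.62 (unadjusted p = 0.177), and without the 5 tumours of high Tchh -0.55 (unadjusted p = 0.206). Krt90 had the smallest p for the interaction with gemcitabine, with counts of 0, 0, 52, 0 and 0 in gemcitabine tumours, 0, 2, 1, 164 and 0 with KCL-HO-1i and 0 in all 5 tumours of KCL-HO-1i/gemcitabine. It was carried by gemcitabine replicate 3 and KCL-HO-1i replicate 4, and with so many tumours at 0 no fold is given (adjusted p = 1). It did not pass the filter without the 5 tumours of high Tchh.

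Genes whose products work with keratins were compared as lists. Of 14 linkers and desmosomal genes, which tie keratin filaments to the cell border, 4 were lower at an unadjusted p of 0.05 for the KCL-HO-1i average and 0 were higher, and none passed the adjusted test. Over all genes, 9.22% were lower and 13.7% higher at that threshold. The smallest p was that of Dsg2, a desmosomal cadherin of simple epithelium (log2 difference -0.42, SE 0.11, adjusted p = 0.0525). Of 7 other intermediate filament genes tested, 3 were higher and 1 lower, with the smallest p for Des, the desmin of muscle (2.85, SE 0.79, adjusted p = 0.0558), and the 10 skeletal muscle genes were all higher at the unadjusted threshold, with summed levels of 1.76 to 44.7 CPM in vehicle tumours and of 3.34 to 12706 CPM with KCL-HO-1i/gemcitabine. Of 7 contractile genes of myoepithelial and smooth muscle cells 7 were higher (Cnn1, calponin, 2.73, SE 0.72, adjusted p = 0.0532). Of the 4 basal keratins none had an unadjusted p under 0.05 for that average, but Krt14 was close to it (0.72, SE 0.36, unadjusted p = 0.053, adjusted p = 0.224). Krt14 was 0.93 (unadjusted p = 0.0349, adjusted p = 0.403) without the 5 tumours of high Tchh. It was 0.33 (unadjusted p = 0.279, adjusted p = 0.545) without KCL-HO-1i/5-FU replicate 1. Markers of other cell types were also higher at that threshold in the same comparison: 10 of 10 adipocyte, 8 of 8 fibroblast, 7 of 8 macrophage and 3 of 6 endothelial genes. Their part in the keratin values was not tested.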

How the data were processed

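Bulk RNA-seq of 30 mammary tumours was analysed as the authors deposited it, in 1 table of estimated counts per gene symbol. Per the labels and the methods of the study, stranded total RNA libraries were checked with FastQC 0.11.9, and reads were aligned with STAR 2.7.9a to mm10 and quantified with Salmon 1.9.0, whose estimates need not be whole (38.0% of the deposited estimated counts were not) and divide reads among similar genes. The annotation release is not given in the sources used here. The study used DESeq2.

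Counts were rounded, scaled by TMM and kept where filterByExpr (minimum 10) allowed, leaving 13663 of 21841 genes. A quasi-likelihood model with 6 group means was fitted in edgeR 4.0.16 (R 4.3.3) and p-values were adjusted by Benjamini-Hochberg over all genes tested, with a threshold of 0.05. The common coefficient of biological variation was 0.401. Correlations used log2 CPM (prior count 2) with two-sided permutation tests of 100000 draws (scipy 1.17.1). Of 14 pairs of genes listed, the 11 whose genes both had 10 or more counts in 20 or more tumours are given. Floors of 3 counts cover counting error only. Alternatives were RLE scaling, DESeq2 1.42.0, limma-voom (limma 3.58.1) with quality weights, no filter, a filter of 10 counts in 5 libraries, the replicate number, the prefix of the sample code or an epithelial score as a term, only the groups compared, and each library left out. The test was tested on counts simulated for all 30 libraries, with the mean of each gene over them, and 13603 genes were run. Some genes, taken only from those with higher mean counts, were changed in the KCL-HO-1i group. Against vehicle, it recovered 93% of genes changed by a log2 fold of 2 and 97% of those changed by 4. Recovery among genes of few counts, as many keratins are, was not tested. Nor was it tested among genes as variable as the keratins, whose median SD of log2 CPM was 1.23 against 0.34 over all genes. The recovery given therefore does not apply to the keratins.

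Keratins were taken by symbol. Named with values were Krt8, Krt18, Krt19, Krt7, Krt5, Krt14, Krt15, Krt17, Krt6a, Krt16, Krt1 and Krt10, the keratin with the smallest p in each comparison and the 6 with the largest ratio of highest to lowest CPM; others were named after their values were seen. Members and lists were chosen with earlier results of these data known. Coordinates and transcript lengths are from GENCODE M21 and start regions from RefSeq (GRCm38.p6), where 14 of the 22 keratins had an entry. Figures were drawn with matplotlib 3.10.9.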

Additional observations from a re-analysis of the deposited data

Results flagged for a closer look

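Within each group of 5 tumours, the highest and the lowest value of 20 keratins were set against the rest of the group by Dixon's gap. Of 120 groups tested, 27 had a tumour that stood apart, 23 high and 4 low. Chance marks about 1 in 20 groups, but that share does not apply here, because 6 of these keratins were taken for their wide range and others for a small p. Several of the values are a few counts beside tumours at 0, and those of a tumour are not independent of one another.

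KCL-HO-1i replicate 4 stood above its group in 8 keratins: Krt73 at 103 CPM, Krt27 at 41.3, Krt71 at 34.4, Krt10 at 32.8, Krt1 at 23.8, Krt90 at 16.3, Krt6b at 10.8 and Krt75 at 1.49. Gemcitabine replicate 3 did so in 6, with Krt6a at 59.6 CPM, Krt73 at 23.8, Krt6b at 19.4, Krt1 at 14.1, Krt90 at 4.76 and Krt75 at 2.11. In KCL-HO-1i/5-FU replicate 1, Krt17 stood out at 315 CPM, and so did Krt90 (1.66 CPM, 22 counts), Krt73 (0.377 CPM, 5 counts), Krt27 (0.302 CPM, 4 counts) and Krt6b (0.151 CPM, 2 counts). Krt27 stood out at 15.6 CPM in KCL-HO-1i/gemcitabine replicate 5 and Krt90 at 1.79 CPM in vehicle replicate 5. Krt6b at 0.0741 CPM in KCL-HO-1i/gemcitabine replicate 1 was a single count beside 4 tumours at 0. Krt19 was high in KCL-HO-1i/gemcitabine replicate 1, at 360 CPM.

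The low tumours were KCL-HO-1i/5-FU replicate 3 for Krt8 (567 CPM), gemcitabine replicate 4 for Krt19 (75.3 CPM), KCL-HO-1i/gemcitabine replicate 4 for Krt5 (14.2 CPM) and 5-FU replicate 4 for Krt9 (0.0815 CPM, a single count).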

How the results depend on the processing

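Each comparison was recomputed under 39 or 40 alternatives, 30 of which left out 1 library, and the count of keratins past the adjusted threshold was 0 in all of them except as follows. With DESeq2 it was 1 for KCL-HO-1i/gemcitabine (Krt71, adjusted p = 0.0172), 2 for the KCL-HO-1i average (Krt71, 0.00963, and Krt9, 0.0434) and 1 for any difference (Krt71, 0.00129). With 1 library left out it ranged from 0 to 1 for the average, where Krt71 passed without gemcitabine replicate 5, KCL-HO-1i replicate 5, KCL-HO-1i/5-FU replicate 4 or 5, or KCL-HO-1i/gemcitabine replicate 4 (adjusted p between 0.0441 and 0.049), and from 0 to 1 for any difference, where it passed without KCL-HO-1i/gemcitabine replicate 4. Over all alternatives the adjusted p of Krt71 for the average ran from 0.00963 to 0.58. The log2 difference of Krt75 with gemcitabine reversed from 1.38 to -1.37 with limma-voom, -2.0 without the 5 tumours of high Tchh (an alternative chosen after seeing the data) and -1.77 without gemcitabine replicate 3, and ranged up to 1.73 when other libraries were left out. The interaction of KCL-HO-1i with gemcitabine on Krt90 reversed to 0.85 with limma-voom. The cause of these changes was not tested. The relation of Krt8 with Krt7 fell to r = 0.312 without the 2 tumours farthest from the median. In Pearson r the other 10 pairs stayed on their side of the threshold. With Spearman rho over all tumours, Krt8 with Krt7 did not pass (permutation p = 0.056, adjusted 0.0616). Krt14 with Acta2 passed with rho (permutation p = 0.00935, adjusted 0.0147) but not with Pearson r. With the replicate number as a replicate block, 0 keratins passed in each of the 9 comparisons. Same-numbered tumours of different groups deviated together no more than others (mean correlation 0.0028 over 75 pairs against 0.002 over 300), so the numbers did not pair them.

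Depth limited the rare keratins: at 3 counts, or 0.215 to 0.302 CPM, Krt6b, Krt27, Krt73 and Krt90 could not be told from 0 in most tumours.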
